A study of Mus musculus with 3 samples.

Results

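The 6 genes described here are Gm45716, Mmd, Strip2, Chst2, Lbh and Rhpn1, of 32285 genes counted in single cells of the mouse cochlea. They were chosen by their levels in outer hair cells (OHCs). In an earlier pass over the same data each was higher in both libraries of postnatal day 28 (P28) than in the library of postnatal day 14 (P14). That pass also asked for a level in OHCs at P28 above that of all other cells together. The difference between the ages in OHCs is therefore a description of how the genes were picked and is given without a test.

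All animals were C57/B6 mice with no treatment or engineered allele named, and age is the difference between the groups that the labels name. P14 was sampled with 1 library and P28 with 2, and each pooled the 14 cochleae of 7 mice. The replicate is thus a pool of animals, and the single P14 library gives no spread at that age. Dissociated, unsorted cells were loaded on the 10x Chromium system, which captures polyadenylated RNA at its 3′ end and counts each captured molecule once through a unique molecular identifier (UMI). Barcodes with 200 to 6000 genes and at most 15% mitochondrial UMIs were kept, which left 1662 of 2513 barcodes at P14 and 5649 of 11948 and 7065 of 18196 in P28 libraries 1 and 2.

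OHC-like cells were 924 of these 14376 cells, with 276 at P14, 364 in P28 library 1 and 284 in P28 library 2. The name rests on markers. Slc26a5, which encodes the motor protein prestin, stood at 2038, 533 and 653 CPM (counts per 1e+06 UMIs of the class) in the P14 library and P28 libraries 1 and 2. In inner hair cell-like (IHC-like) cells it stood at 3.96, 0.0 and 1.68 CPM. Slc17a8, the glutamate transporter of inner hair cells (IHCs), reached 1593, 1681 and 1852 CPM in IHC-like cells. In OHC-like cells it stood at 16.1, 79.3 and 76.4 CPM. The 6 genes were withheld from the genes on which the cells were clustered.

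Several properties of the OHC-like cells moved with age or with 1 library. The median mitochondrial share was 8.62% at P14 and 13.1% and 12.7% at P28, and the nuclear RNA Malat1 stood at 56956 CPM at P14 against 11218 and 13480 CPM at P28. The 6 erythrocyte markers summed to 237 CPM at P14, 1259 CPM in P28 library 1 and 7230 CPM in P28 library 2, and the 7 granulocyte markers to 694 CPM in P28 library 2 against 1.07 and 0.81 CPM in the others. Ighm, the immunoglobulin heavy chain gene, gave all of the 2122 CPM of the 7 B cell markers at P14, where the other markers were at 0. Between the P28 libraries 54 barcodes were shared, 10 of them among kept cells, and 1 of those was OHC-like in both. Markers of the neighbouring supporting cells were present too, with sums of 2095, 4233 and 3860 CPM for the 8 Deiters' and pillar cell markers and 92.8, 476 and 529 CPM for the 6 tympanic border cell markers. The 7 IHC markers, which include the shared hair cell gene Myo6, summed to 2706, 2922 and 2841 CPM. Among them Slc17a8 was higher at P28, as given above, and so was Otof, at 70.3 CPM against 498 and 439 CPM. The part of these properties in the age values below was not tested, except where values within bands of cells are given.

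OHCs amplify sound in the cochlea by changing their length with the membrane potential, while IHCs pass the signal to spiral ganglion neurons. OHCs go on maturing after the onset of hearing. Of the 6 genes, Lbh encodes a transcription cofactor first described in limb bud and heart and studied in the Wnt pathway. Strip2 encodes a subunit of STRIPAK, an assembly of protein phosphatase 2A with striatin proteins and kinases. Mmd encodes a membrane protein of the PAQR family named after the differentiation of monocytes into macrophages. Chst2 encodes a Golgi enzyme that adds sulfate to N-acetylglucosamine of carbohydrate chains. Rhpn1 encodes the adaptor protein rhophilin. Gm45716 is a predicted protein-coding gene for which no role is stated here.

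Gm45716 and Mmd lie next to each other, and their counts cannot be treated as fully separate. In GENCODE M21 (GRCm38, the assembly named mm10 in the submitters' notes) Gm45716 spans chr11:90187683-90251255 and Mmd spans chr11:90249456-90278589, both on the plus strand. Their gene bodies share 1800 bases and their exons share 280 bases, so that Gm45716 ends inside Mmd. Their annotated 3′ ends, where this kind of library reads, lie 27334 bases apart. Reads in the shared exon bases cannot be given to one of the genes, and both levels are uncertain at least to that extent. No other gene counted in the files overlapped the span of any of the 6 genes. Gm45883, a processed transcript on the same strand, was not among the counted genes. It shares 63148 bases with the span of Gm45716 and 18126 bases with that of Mmd. The part of its RNA in the counts of these genes was not tested.

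Because Gm45716 is known only as a prediction, its annotated coding sequence is shown. It is a single uninterrupted run of 282 bases at chr11:90187779-90188060 on the plus strand (93 codons before the stop), identical in its 3 annotated transcripts. The capitals mark the first codon and the stop codon.
Gm45716: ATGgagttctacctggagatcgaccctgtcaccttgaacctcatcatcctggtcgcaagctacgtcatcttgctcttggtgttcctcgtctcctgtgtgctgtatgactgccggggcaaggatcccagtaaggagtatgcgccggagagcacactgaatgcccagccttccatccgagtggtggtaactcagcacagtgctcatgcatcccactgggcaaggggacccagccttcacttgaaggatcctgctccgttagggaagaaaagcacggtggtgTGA

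The other 4 genes lie on other chromosomes. Strip2 is at chr6:29917012-29959681 (plus strand), Chst2 at chr9:95399292-95406722 (minus strand), Rhpn1 at chr15:75704280-75715485 (plus strand) and Lbh at chr17:72918305-72941947 (plus strand). RefSeq promoter sequences (GRCm38.p6) matched 4 of the 6 genes, Mmd, Strip2, Chst2 and Lbh. The 250 bases before the RefSeq start of Lbh, Strip2 and Chst2 are shown, as each was picked for a higher level at P28 in OHCs. That of Mmd is left out because an exon of Gm45716 runs through it. Capitals mark matches, on either strand, to the TATA box letters TATAAA, the box CCAAT, the GC box letters GGGCGG, the E-box letters CAGCTG and the Ikaros-type letters TGGGAA. No match overlapped one of another motif.
Lbh (chr17:72918055-72918304, plus strand): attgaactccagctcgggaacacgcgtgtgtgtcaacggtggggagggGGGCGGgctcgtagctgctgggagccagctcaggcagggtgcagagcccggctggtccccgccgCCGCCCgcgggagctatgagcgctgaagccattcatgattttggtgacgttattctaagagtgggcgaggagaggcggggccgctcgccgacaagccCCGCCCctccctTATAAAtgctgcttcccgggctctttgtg
Strip2 (chr6:29916763-29917012, plus strand): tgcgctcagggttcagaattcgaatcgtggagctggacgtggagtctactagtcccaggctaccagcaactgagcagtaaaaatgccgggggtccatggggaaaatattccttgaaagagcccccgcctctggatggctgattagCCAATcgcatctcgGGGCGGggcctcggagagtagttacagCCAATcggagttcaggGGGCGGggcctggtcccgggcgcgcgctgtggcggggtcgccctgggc
Chst2 (chr9:95407271-95407520, minus strand): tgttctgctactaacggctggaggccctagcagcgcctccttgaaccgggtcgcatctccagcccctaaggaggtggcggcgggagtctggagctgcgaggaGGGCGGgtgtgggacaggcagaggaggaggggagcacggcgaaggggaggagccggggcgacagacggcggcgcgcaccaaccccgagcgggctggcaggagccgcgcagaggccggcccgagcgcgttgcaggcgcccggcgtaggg
All 3 sequences held GGGCGG, the letters of a GC box, with 3, 2 and 1 matches, and 32.7% of 32851 promoters of the same length held it. TATAAA was found 29 bases before the start of Lbh and in neither other sequence, against 12.4% of all promoters. CCAAT was found 2 times in Strip2 alone, against 33.8% of all promoters. The E-box letters CAGCTG (13.0% of all promoters) and the letters TGGGAA (21.6%), as in sites of Ikaros-type factors, were in none of the 3. A match of letters does not show that a factor binds there, and no match says only that these letters are not in this window. The share of G and C was 64.8% for Lbh, 62.0% for Strip2 and 72.8% for Chst2, against a median of 52.4% over all promoters.

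In OHC-like cells the 6 genes fell into a trio with a P28 level 3.77 to 5.01 times that of P14 and a trio with a P28 level 1.47 to 1.61 times that of P14. Levels are CPM of the class with exact 95% Poisson intervals, which cover counting error only, and log2 ratios have 1 CPM added to each level. Gm45716 stood at 619 CPM at P14 and at 3173 and 3039 CPM in P28 libraries 1 and 2, a P28 mean of 3106 ± 95.1 CPM (SD, n = 2) and a log2 ratio of 2.32. Mmd stood at 407, 1532 and 1535 CPM, with a P28 mean of 1534 ± 2.06 CPM (SD, n = 2) and a log2 ratio of 1.91. Rhpn1 stood at 28.4, 120 and 100.2 CPM, with a P28 mean of 110 ± 14.0 CPM (SD, n = 2) and a log2 ratio of 1.92. These are the larger changes, and for Gm45716 and Mmd the P28 libraries lay close together.

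The other trio was already high at P14. Lbh stood at 2303 CPM at P14 and at 3616 and 3305 CPM at P28, a log2 ratio of 0.59. Strip2 stood at 825, 1366 and 1289 CPM, a log2 ratio of 0.69. Chst2 stood at 1074, 1698 and 1462 CPM, a log2 ratio of 0.56. For all 6 genes the P14 interval lay below both P28 intervals, which the choice of genes fixes. Of 2161 genes with at least 100 CPM in OHC-like cells, 27.7% lay above P14 in both P28 libraries in this way and 29.2% lay below, with a median log2 ratio of 0.0065 over all of them. Leaving out mitochondrial, ribosomal protein and haemoglobin genes moved that median to 0.11 and TMM scaling moved it to -0.18, and the intervals of all 6 genes stayed apart under both, with Chst2 lowest under TMM (0.37).

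**Figure D1:**
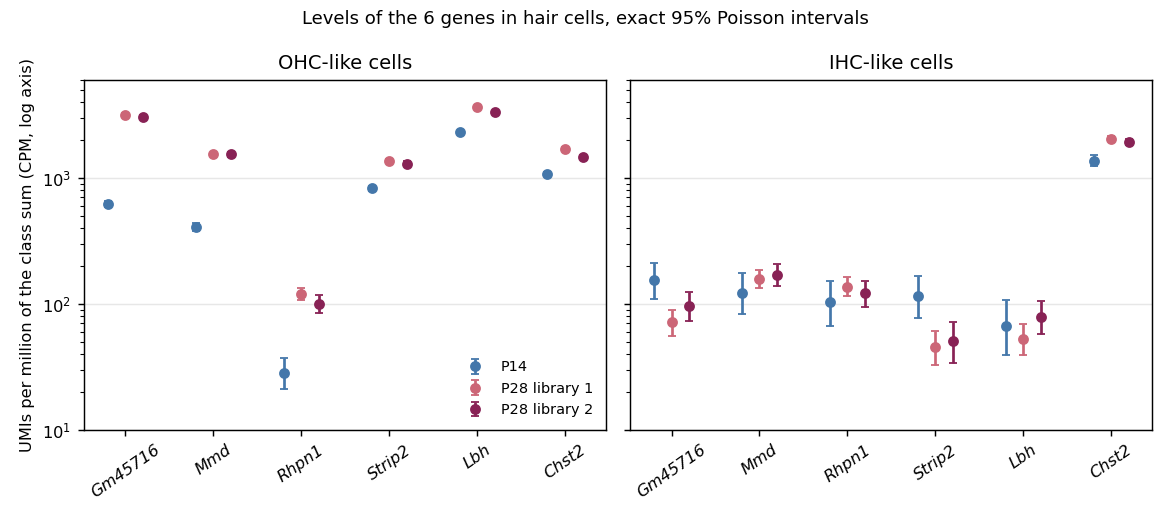
Levels of the 6 genes in OHC-like cells (left) and IHC-like cells (right) as CPM of the class sum on a log axis, 1 point per library with its exact 95% Poisson interval. In OHC-like cells each P14 point lies below both P28 points, by the most for Gm45716 (619 against 3173 and 3039 CPM), while in IHC-like cells Chst2 alone has its P14 interval below both P28 intervals and Strip2 has it above both.

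The rule set no limit on the size of the change. Among 1182 genes at 100 CPM or more in OHC-like cells of P28 that exceeded the remaining cells, ordered by the smaller of the P28 to P14 ratios of the libraries, Gm45716 was at position 2, Mmd at 6 and Rhpn1 at 8. Strip2 was at 173, Lbh at 248 and Chst2 at 294. Position 1 was held by Otof, the calcium sensor of the IHC synapse, whose level went from 70.3 CPM to 498 and 439 CPM. The genes just after Chst2, whose smaller log2 ratio was 0.45, were Gm30191, Eif1b, Tmem56, Peli1 and Pink1 with 0.45, 0.45, 0.45, 0.45 and 0.44.

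The mitochondrial share of the cells moved with these values. Of the OHC-like cells with more than 10% mitochondrial UMIs (67 at P14, 347 and 246 at P28), all 6 genes had a P14 interval below both P28 intervals. Of those with at most 10% (209 at P14, but 17 and 38 at P28), Gm45716 and Mmd did and the other 4 genes did not. In that band Gm45716 stood at 635, 2174 and 2656 CPM and Mmd at 401, 857 and 1479 CPM, log2 ratios of 1.92 and 1.54. Strip2 stood at 798, 553 and 1241 CPM there, so that P28 library 1 lay below P14 and P28 library 2 above it. Lbh stood at 2320, 2233 and 3093 CPM and Chst2 at 1054, 965 and 1262 CPM, and for both genes P28 library 1, which had 17 such cells, overlapped P14. Rhpn1 stood at 27.6, 39.2 and 67.8 CPM. Cells with at most 3000 genes and cells with more than 3000 genes each gave all 6 genes with separate intervals.

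**Figure D2:**
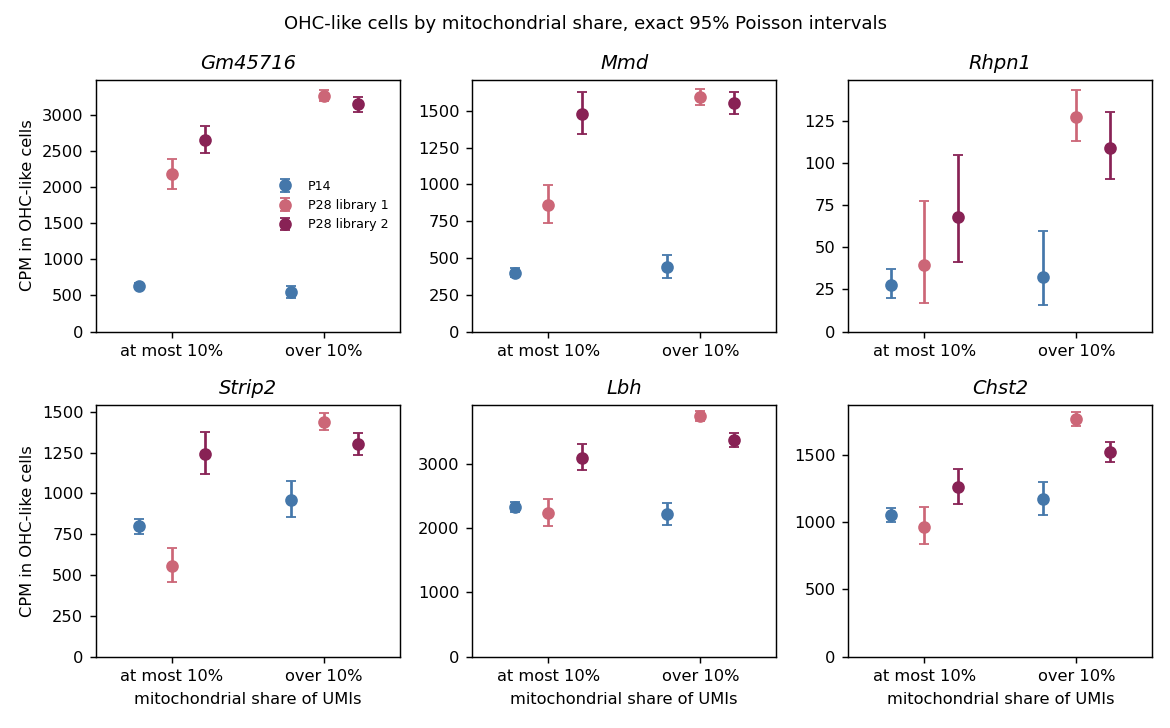
CPM of each gene in OHC-like cells with at most 10% and with over 10% mitochondrial UMIs (x axis), 1 point per library with its exact 95% Poisson interval, the y axis starting at 0. In the band over 10% all P28 points lie above P14, while in the lower band P28 library 1 overlaps or lies below P14 for Strip2, Lbh, Chst2 and Rhpn1.

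Within the OHC-like cells of P14 the levels were uneven. Clustering split them into 192 cells with a median of 4636 UMIs and 84 cells with a median of 10130 UMIs. Gm45716 stood at 892 CPM in the first cluster and 345 CPM in the second, and Mmd at 562 and 250 CPM. Strip2 went the other way, with 708 and 942 CPM. At P28 the corresponding clusters of library 1, with 302 and 62 cells, gave 3089 and 3373 CPM for Gm45716 and 1464 and 1694 CPM for Mmd. Lbh stood at 3365 and 4208 CPM in those clusters, and at 2593 and 2011 CPM in those of P14.

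Depth differed between the ages, with a median of 6485 UMIs per OHC-like cell at P14 and 5244 and 3752 at P28, so cells were also thinned to 1000 UMIs each. This left out 17 of the 276 OHC-like cells at P14, 2 in P28 library 1 and 0 in P28 library 2. Gm45716 then had a UMI in 45.9% of OHC-like cells at P14 and in 92.3% and 90.1% at P28, with exact binomial 95% intervals of 39.8 to 52.2%, 89.0 to 94.8% and 86.1 to 93.3%. Mmd was detected in 37.8%, 72.7% and 74.6% of them, and Rhpn1 in 1.93%, 11.3% and 11.6%. Strip2 was detected in 48.6%, 70.4% and 68.0%. For Lbh (86.9%, 93.1% and 92.6%) and Chst2 (68.0%, 77.9% and 72.9%) the P14 interval overlapped those of both P28 libraries. Before thinning Rhpn1 was in 12.5% and 23.8% of the cells of the P14 clusters. In erythrocyte-like cells of the P28 libraries, which should lack these genes, thinned shares lay between 0.0 and 1.72%. The share of Rhpn1 at P14 rested on 5 of 259 cells, with an exact interval of 0.63 to 4.45%. Rhpn1 itself had 0 UMIs in erythrocyte-like cells of both P28 libraries and in macrophage-like, fibroblast-like and RM-like cells of P14, and its P14 level in OHC-like cells was 28.4 CPM with an interval of 21.3 to 37.2 CPM. That interval overlapped those of B cell-like cells and of 2 supporting cell classes at P14. B cell-like cells stood at 0.0 CPM with an upper limit of 30.3 CPM. A count of 0 UMIs in a small class, such as the 40 RM-like cells of P14, therefore does not show a lower level. Cells with Deiters' and pillar cell markers stood at 20.3 CPM (9.27 to 38.5 CPM). Those with inner sulcus, Hensen's and outer sulcus cell markers stood at 11.4 CPM (4.94 to 22.6 CPM).

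More of the 6 genes were detected in an OHC-like cell at P28, which the choice of genes favours. They were picked for OHC levels higher at P28 than at P14 and above those of all other cells together at P28. The shares below describe cells of single pools and are given without a test. The median thinned OHC-like cell held UMIs of 3 of the 6 genes at P14 and of 4 in each P28 library. At least 3 of them were found in 64.5% of OHC-like cells at P14 and in 94.8% and 93.0% at P28. In IHC-like cells the shares were 9.68%, 7.07% and 5.56%. The P14 share is 3 of 31 IHC-like cells, as thinning left out 29 of 60. In all cells other than hair cells the shares were 0.0%, 0.32% and 0.067%, with 317 of 1326 left out at P14. A count of 0 of 1009 such cells at P14 allows for up to 3 cells.

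**Figure D3:**
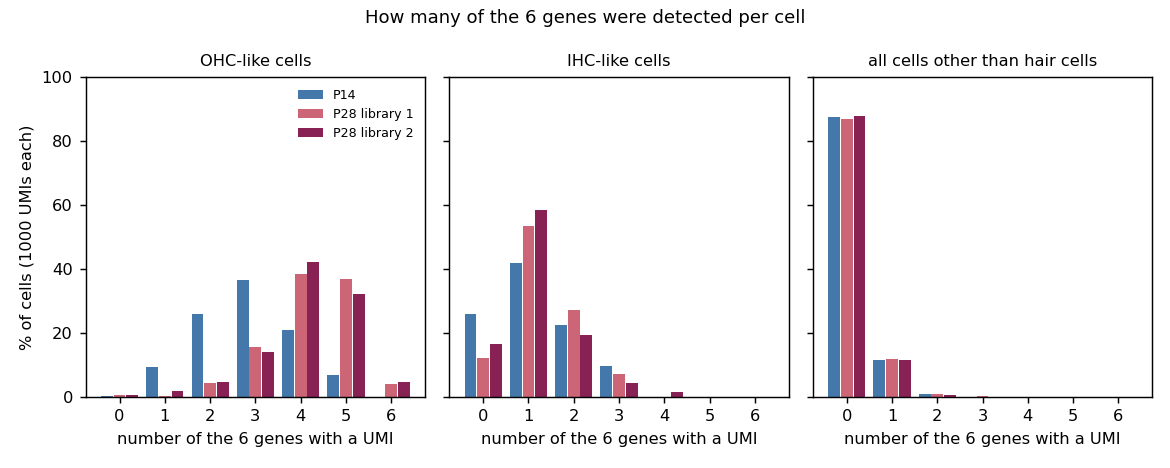
Percent of cells (y axis) by how many of the 6 genes had at least 1 UMI (x axis) after each cell was thinned to 1000 UMIs, by class and library. OHC-like cells centre on 3 genes at P14 and on 4 at P28, IHC-like cells on 1 gene, and other cells on 0. The choice of genes favours higher numbers in OHC-like cells at P28.

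Against IHC-like cells of the same libraries, the set split in a different way. Lbh, Gm45716, Strip2 and Mmd were higher in OHC-like than in IHC-like cells, while Chst2 and Rhpn1 did not pass the test. The test was edgeR's quasi-likelihood test on 3 sums against 3 with the library as a block, and p-values were adjusted over all genes tested (Benjamini-Hochberg). The choice of genes used the OHC levels that enter this test. It compared them with all other cells together, of which IHC-like cells are a small part. Neither the direction nor the p-values are therefore independent of that choice, and they describe the size of the difference. Of 9494 genes tested, 16.7% were called higher in OHC-like cells and 17.2% lower.

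Lbh had the largest difference among the 6, since its IHC-like levels were 67.3, 52.6 and 79.0 CPM beside 2303, 3616 and 3305 CPM (log2 fold change 5.73, SE 0.22, adjusted p = 4.59e-07 by edgeR). Gm45716 was at 155, 71.2 and 95.9 CPM in IHC-like cells (log2 fold change 4.47, SE 0.57, adjusted p = 0.000268 by edgeR). Strip2 was at 115, 45.4 and 50.5 CPM there (log2 fold change 4.36, SE 0.35, adjusted p = 1.58e-05 by edgeR). Mmd was at 123, 159 and 170 CPM (log2 fold change 2.98, SE 0.28, adjusted p = 3.62e-05 by edgeR). In each of the 3 libraries these 4 genes were higher in OHC-like cells, and the groups did not overlap.

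Chst2 was high in both hair cell classes, with 1371, 2041 and 1921 CPM among IHC-like cells beside 1074, 1698 and 1462 CPM. It was lower in OHC-like cells in 3 of 3 libraries, but the log2 fold change of -0.20 (SE 0.12) had an adjusted p of 0.244 by edgeR. Without the P14 library the log2 fold change was -0.21. That fit, of the P28 libraries with the library block, left too few residual degrees of freedom for its call to be read. In IHC-like cells Rhpn1 was at 103, 137 and 121 CPM, and the OHC-like values given above were lower in each library (log2 fold change -0.39, SE 0.27, adjusted p = 0.293 by edgeR). At P14 its intervals in the classes lay apart and at P28 they overlapped. With the cells limited to 3000 genes and 15000 UMIs Rhpn1 was called lower in OHC-like cells (log2 fold change -1.13), and also with at most 10% mitochondrial UMIs (-1.21).

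Both shared genes, and some of the others, also stood above the rest of the cochlea in IHC-like cells. The same edgeR test of IHC-like cells against all cells other than hair cells called 5 of the 6 genes higher, against 13.3% of the 12674 genes tested. The choice of genes asked for an OHC level at P28 above all other cells together, and most of those are the reference cells here. The count is therefore not independent of that choice. For Chst2 edgeR gave a difference of 5.28 on the log2 scale (SE 0.26, adjusted p = 8.66e-05) and for Rhpn1 one of 3.44 (SE 0.23, adjusted p = 0.000168 by edgeR). Strip2, Mmd and Gm45716 followed with 2.84, 2.14 and 1.94. Their IHC-like levels were also taken as shares of their OHC-like levels (P14, then P28 libraries 1 and 2). Strip2 stood at 13.9%, 3.32% and 3.91%, Mmd at 30.2%, 10.4% and 11.1%, and Gm45716 at 24.9%, 2.24% and 3.15%. Strc, a gene of OHC function, stood at 5.02%, 3.78% and 4.43%, Ocm at 0.48%, 1.57% and 1.85%, and Slc26a5 at 0.19%, 0.0% and 0.26%. The part of OHC RNA in the IHC-like values was not tested. Lbh did not pass the test, with 0.68 (SE 0.33, adjusted p = 0.159 by edgeR) and a higher level in IHC-like cells in 2 of 3 libraries. It was called higher with the mitochondrial limit at 30%. The fit without the P14 library also called it higher, but left too few residual degrees of freedom for that call to be read.

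**Figure D4:**
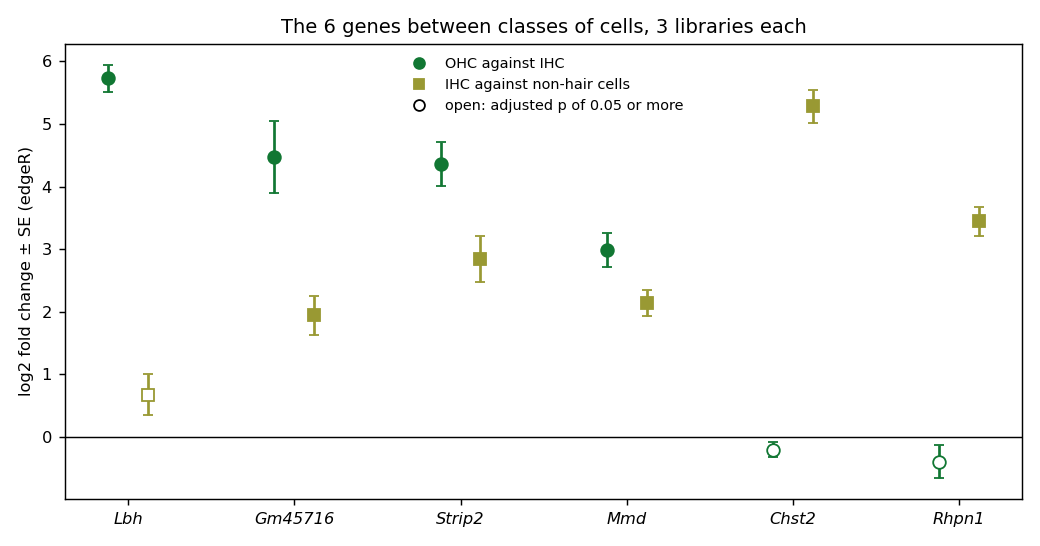
Log2 fold changes from edgeR, with their SE as bars, between OHC-like and IHC-like cells (circles) and between IHC-like cells and all cells other than hair cells (squares), 3 libraries each. Filled symbols have an adjusted p under 0.05. Lbh is high in the first comparison (5.73) and open in the second (0.68), and Chst2 is the reverse (-0.20 and 5.28).

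Outside the hair cells each gene had its own pattern. Chst2 was next highest in cells with Schwann and satellite glial markers (SC/SGC-like), at 280, 440 and 349 CPM, and in spiral ganglion neuron-like (SGN-like) cells at 223 and 211 CPM in the P28 libraries. The P14 library gave no SGN-like cluster. All of these intervals lay below those of OHC-like and IHC-like cells of the same library. In the order of classes OHC-like cells came first for Gm45716, Mmd, Strip2 and Lbh in all 3 libraries, with intervals apart from the next class. For Chst2 and Rhpn1 IHC-like cells came first in all 3 libraries, and for Rhpn1 the OHC-like interval overlapped theirs in both P28 libraries. The OHC-like interval of Rhpn1 also overlapped those of lower classes at P14, cells with Deiters' and pillar cell markers among them. In P28 library 2 it overlapped that of SC/SGC-like cells.

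Gm45716 and Mmd were also both detected in a further class. In cells with markers of Reissner's membrane (RM-like), a thin sheet that bounds the scala media, of which P14 held 40, Gm45716 stood at 171, 95.8 and 77.9 CPM and Mmd at 85.5, 109 and 102 CPM. There Ocm, the most abundant OHC marker, was at 0.33%, 0.17% and 0.049% of its OHC-like level, while Gm45716 was at 27.6%, 3.02% and 2.56% and Mmd at 21.0%, 7.10% and 6.67% of theirs. Strip2 was at 0.0, 5.18 and 4.27 CPM in these cells. At P14 the RM-like values rested on 18 UMIs of Gm45716 and 9 of Mmd. The part of OHC RNA in the RM-like values was not tested. The share of Gm45716 in the UMIs of both genes was 60.4%, 67.4% and 66.4% in OHC-like cells and 55.7%, 30.9% and 36.1% in IHC-like cells. At P28 these exact intervals lay apart (66.6 to 68.3% against 24.9 to 37.5% in library 1), so the UMIs of the neighbouring genes did not keep 1 ratio across classes.

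In SGN-like cells of the P28 libraries, against all other cells that are not hair cells, edgeR on 2 sums against 2 called 36.2% of 14934 genes higher and 42.5% lower. Chst2 and Strip2 were called higher, with log2 fold changes of 3.29 (SE 0.13) and 3.30 (SE 0.23) and levels of 35.1 and 29.6 CPM for Strip2. Mmd, Gm45716 and Lbh were called lower, with -2.08, -1.13 and -0.74, and Rhpn1 did not pass (-0.40, adjusted p = 0.0955 by edgeR). When cells were limited to 3000 genes and 15000 UMIs, which left 142 and 43 SGN-like cells in place of 333 and 296, none of the 6 genes was called lower and Gm45716 (1.48) and Lbh (1.37) were called higher.

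Despite its name Mmd did not pass the test in macrophage-like cells, at 65.7, 41.5 and 41.7 CPM (log2 fold change 0.97, SE 0.38, adjusted p = 0.110 by edgeR against the other cells that are not hair cells). Lbh was the 1 gene of the 6 called higher there (log2 fold change 1.08, SE 0.24, adjusted p = 0.0205 by edgeR), against 12.9% of 12435 genes called higher and 11.8% lower. Its levels were 171, 32.6 and 47.2 CPM, beside 959, 17.8 and 52.8 CPM of the OHC marker Ocm in the same cells, and the call was lost when P28 library 1 or 2 was left out (edgeR, adjusted p = 0.0858 and 0.0844) and under several other settings.

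**Figure D5:**
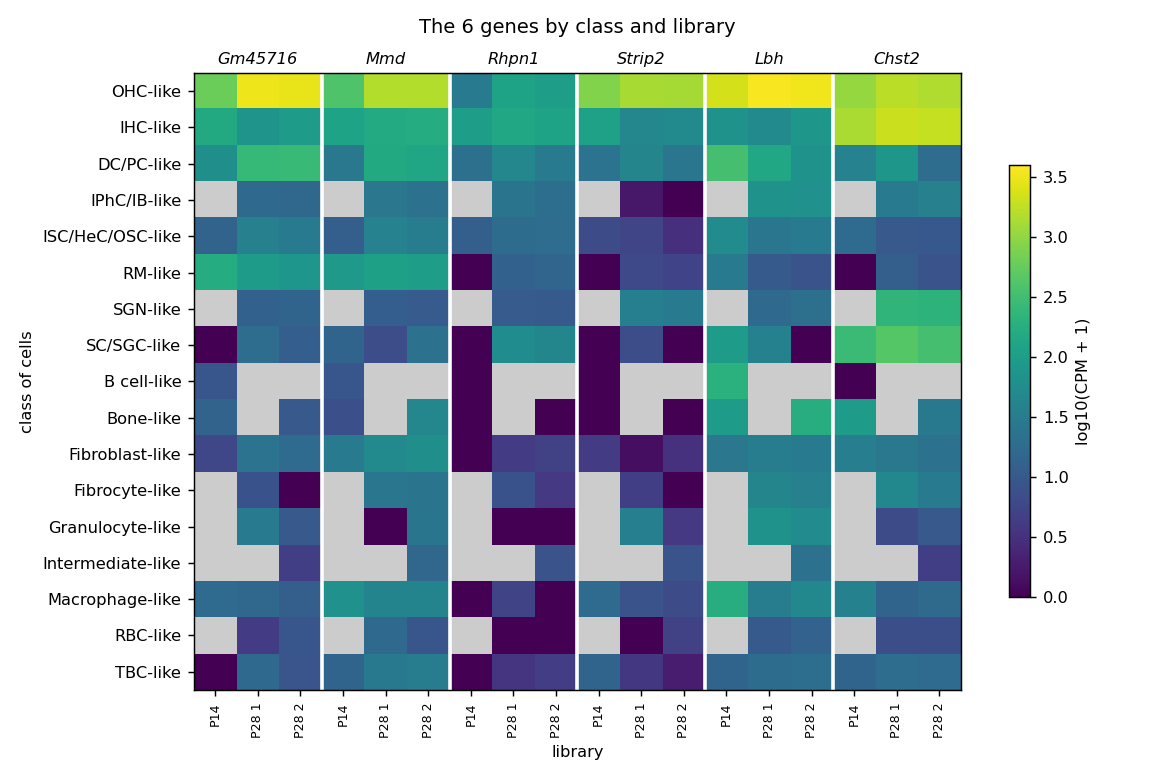
Levels of the 6 genes as log10(CPM + 1) in the named classes of cells (rows) and libraries (columns), with grey where a library held under 10 cells of the class or its cluster was mixed. The pericyte-like class is not shown. OHC-like cells are the brightest row for Gm45716, Mmd, Strip2 and Lbh, and IHC-like cells for Chst2 (2041 and 1921 CPM at P28). DC/PC stands for Deiters' and pillar cells, IPhC/IB for inner phalangeal and inner border cells, ISC/HeC/OSC for inner sulcus, Hensen's and outer sulcus cells, TBC for tympanic border cells and RBC for erythrocytes.

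The age pattern was not the same in the other classes. The change with age in these classes was not used to pick the genes. Their P28 cells were part of all other cells together, which OHCs had to exceed at P28. With 1 P14 library the age values are given without a test. In IHC-like cells Chst2 was higher at P28 (1371 CPM at P14 against 2041 and 1921 CPM, log2 ratio 0.53), close to its ratio in OHC-like cells. Strip2 was lower at P28 in IHC-like cells (115 against 45.4 and 50.5 CPM, log2 ratio -1.24), but with cells limited to 3000 genes and 15000 UMIs the ratio was 0.87 and the intervals overlapped. They also overlapped with the mitochondrial limit at 30% (-1.13) and at 10% (-1.30). For Gm45716, Mmd, Lbh and Rhpn1 the P14 interval in IHC-like cells overlapped at least 1 P28 interval. IHC-like cells were shallow at P14, with a median of 1026 UMIs against 9310 and 8008 at P28.

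Deiters' and pillar cell-like (DC/PC-like) cells, the supporting cells that hold the OHCs, were higher at P28 for Gm45716 and Mmd and for none of the other 4 genes. Gm45716 stood at 60.8 CPM at P14 and at 260 and 264 CPM at P28, and Mmd at 27.03, 151 and 135 CPM, log2 ratios of 2.09 and 2.36. With the mitochondrial limit at 30% the ratio of Gm45716 was 1.01 and its intervals overlapped. Lbh went the other way, from 342 CPM to 140 and 67.6 CPM, a log2 ratio of -1.71. OHC markers were also detected in these cells. Ocm stood at 322, 651 and 344 CPM in the P14 library and P28 libraries 1 and 2, or 1.02%, 3.78% and 1.97% of its level in OHC-like cells. Gm45716 stood at 9.82%, 8.19% and 8.69% of its own OHC-like level there, Mmd at 6.65%, 9.87% and 8.80%, and Slc26a5 at 1.77%, 2.14% and 3.76%. The OHC marker Chrna10 stood at 2.66%, 4.04% and 1.78%. Strc stood at 0.57%, 6.05% and 6.22%, on 1, 11 and 5 UMIs, which are too few to compare the ages. The groups held 74, 76 and 43 cells, and the part of OHC RNA in these values was not tested. In macrophage-like cells Lbh was also lower at P28 (171 against 32.6 and 47.2 CPM, log2 ratio -2.07). OHC markers were higher at P14 in these cells too, with Ocm at 959 CPM against 17.8 and 52.8 CPM, which is 3.04%, 0.10% and 0.30% of its OHC-like level, and Slc26a5 at 37.1 CPM against 0.0 and 1.39 CPM. Lbh stood at 7.44%, 0.90% and 1.43% of its own OHC-like level there, and the part of OHC RNA in these values was not tested. Without the cells of the highest 5% of doublet scores the ratio of Lbh was -0.44, and with cells limited to 3000 genes and 15000 UMIs it was -0.96, and the intervals overlapped in both.

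Genes of the pathways or families of Strip2, Mmd, Chst2 and Lbh were called in both directions between OHC-like and IHC-like cells. The counts are of genes called by edgeR, include the gene under study, and stand beside 16.7% higher and 17.2% lower over all genes tested. For the STRIPAK and Wnt lists, with 2 of 16 and 1 of 9 higher and 3 of 16 and 2 of 9 lower, the shares are near those over all genes, and the PAQR and sulfotransferase lists have few genes, so nothing about the lists is read from them. Of the 16 STRIPAK genes tested, 2 were higher in OHC-like cells, Strip2 and the kinase gene Stk24 (log2 fold change 1.97), and 3 were lower. Those were Ppp2r1b (-1.73) and Ppp2ca (-0.63), of protein phosphatase 2A, and Strn (-0.80), which encodes striatin. The median was -0.06, against 0.05 over all genes tested.

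Of 6 PAQR family genes tested, Mmd and Paqr9 (1.00) were higher in OHC-like cells and Paqr8 (-3.41) and Paqr6 (-2.43) were lower, with a median of 0.22. Of 4 Golgi carbohydrate sulfotransferase genes tested none was higher, and Chst8 (-3.63) and Chst9 (-1.77) were lower, with a median of -0.99.

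Of 9 Wnt pathway genes tested around Lbh, Lbh alone was higher, and Rnf43 (-2.15) and Tcf7l2 (-1.41) were lower, with a median of -0.16. Of 15 genes of OHC function tested, 14 were higher, beside 16.7% of all genes, with a median of 3.77. Slc26a5, Ocm and Chrna10 had the largest differences but helped to name the class. Dnm3, which encodes a dynamin, did not (4.99), and Kcnma1, the large-conductance potassium channel gene, was lower (-0.51).

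Between the ages in OHC-like cells, genes of OHC function were lower at P28 for some members and higher for others. Of 15 with at least 100 CPM, 5 lay above the P14 interval in both P28 libraries and 8 below, with a median log2 ratio of -0.27, beside 27.7% and 29.2% of all genes. Slc26a5 and Ocm were among those below (Ocm went from 31539 CPM to 17205 and 17484 CPM). In the pathway lists, Mob4 and Ppp2ca joined Strip2 among 5 STRIPAK genes of that level, Adipor2 joined Mmd among 4 PAQR genes, and Ctnnb1 and Gsk3b joined Lbh among 3 Wnt pathway genes, with none below in any of these lists. These names were chosen after their values were seen.

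Across 44 sums of a named class in a library, likeness was measured by Pearson's r of log2(CPM + 10) among genes that reached 100 CPM in at least 1 sum. It is a description, as sums of a library share their cells' handling and depth, and hair cells set much of it. The gene most like Gm45716 was Arhgef16 (r = 0.916), followed by Mmd (0.876) and Strc (0.866). Most like Mmd were Gm45716 (0.876), Tmie (0.854) and Nhlrc2 (0.853). Strip2 was most like Strc (0.938), Dytn (0.934) and Gm5111 (0.931), and Lbh was most like Slc26a5 (0.857), Ankrd22 (0.854) and Chrna10 (0.854). Chst2 was most like Ankrd13b (0.888), Acss2 (0.884) and Hsd17b7 (0.883), and Rhpn1 was most like Wbp1 (0.885), Rimklb (0.871) and Synj2 (0.864). Among the 6 themselves Chst2 and Rhpn1 were alike (0.784) and Lbh and Rhpn1 least so (0.410).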

How the data were processed

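Droplet libraries of dissociated mouse cochlea were aligned to mm10 and counted with Cell Ranger, version 6.0.1 per the submitters' processing notes and 5.0.1 per the file header, and the UMI counts per gene and barcode were deposited by the authors as raw counts. The 6 genes and all gene lists were chosen with earlier results of these data known. Library depths were 10125255 UMIs at P14 and 35485894 and 37530956 at P28. Kept cells were clustered with Seurat 5.3.0 (2000 variable genes without the 6 genes and the list genes, 30 principal components, resolution 1), P14 alone and the P28 libraries after integration. Clusters were named from at least 3 markers of 1 of 23 types and left unnamed where leading genes went against the name.

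UMIs were summed per class and library. Sums were compared with edgeR 4.0.16 in R 4.3.3 (TMM, filterByExpr, quasi-likelihood test, Benjamini-Hochberg 0.05), with the library as a block where 3 libraries were compared, since both sums of a pair come from the same library. Deviations of paired sums correlated with r from 0.144 to 0.500 in these comparisons. No animals can be told apart within a library, so p-values measure the spread between pools. Where 3 libraries were compared the pools were of both ages. A class difference that is unlike between the ages is then part of that spread, which is not the spread of replicates of 1 age. DESeq2 1.42.0 was an alternative, beside other limits on genes and mitochondrial UMIs, resolution 2, no integration, other filters, and leaving out each library. The mitochondrial limit of 10% was added after seeing the data. In simulated counts the edgeR step found 200, 197, 199 and 198 of 200 changed genes for the OHC, IHC, SGN and macrophage comparisons, run on 9520, 13083, 14867 and 12735 genes. It made 9, 12, 0 and 4 false calls. These counts were drawn independently for each sum at a fixed dispersion, with no difference between ages or libraries other than depth. They check that the step runs as meant and do not measure its recovery in the real sums. Scrublet called 4 of 14376 cells as doublets and was taken as not having worked, so none were removed, and the highest 5% of scores were left out in an alternative. The 6 genes were named in every class. List genes were named for the largest called differences in each direction between OHC-like and IHC-like cells, up to 4 a list, like genes for the 3 highest correlations, and neighbours in the order of ratios for the next 5 positions. Some list genes, and 1 of the gene lists, are not reported here.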

Additional observations from a re-analysis of the deposited data

Results flagged for a closer look

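For 3 pairs of a gene and a class the P28 libraries moved against the direction in OHC-like cells, with intervals apart from P14, and the difference between the classes was not tested. Strip2 had a log2 ratio of P28 to P14 of -1.24 in IHC-like cells, while that of OHC-like cells was 0.69. Its IHC-like intervals overlapped at the mitochondrial limits of 30% and 10% and with cells limited to 3000 genes and 15000 UMIs. Lbh had -1.71 in DC/PC-like cells and -2.07 in macrophage-like cells, against 0.59 in OHC-like cells. In macrophage-like cells the OHC marker Ocm stood at 959 CPM at P14 and at 17.8 and 52.8 CPM at P28, and the ratio of Lbh was -0.44 with overlapping intervals without the highest 5% of doublet scores. With 1 library at P14 none of these has a spread at that age.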

How the results depend on the processing

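Directions of the 6 genes were kept in 89 of 90 alternative values for OHC-like against IHC-like cells, 90 of 90 for IHC-like against other cells, 68 of 72 for SGN-like and 83 of 84 for macrophage-like cells. The P28 and P14 intervals in OHC-like cells stayed apart for 6 genes in all settings but the mitochondrial limit of 10%, with 2 genes, and thinning to 1000 UMIs, with 5 (Chst2 overlapped). Resolution 2 and leaving out nucleus-like clusters kept the same OHC-like and IHC-like cells as the main setting. For OHC-like against IHC-like cells and for the age in OHC-like cells they repeat the main values and add no support. The OHC-like cells of P14 that were nucleus-like at resolution 2 stayed in both. Resolution 2 also repeats them in the IHC-like and SGN-like tests. The cause of these changes in intervals was not tested. The age has 1 library at P14, so no replicate bears on that group, and few cells (17 and 38) underlie the P28 values at 10%.

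Of 9494 genes, 3212 were called between OHC-like and IHC-like cells. With 3000 genes and 15000 UMIs as limits 891 were called, with the 10% mitochondrial limit 1149, with DESeq2 2032, and with 10 UMIs in every sum 1702. Without a library 1516 to 4938 were called. The 4 higher genes were called in each of these settings. Rhpn1 was called lower at the first limits and at 10% mitochondrial UMIs, and 0 to 1 genes were called lower without a library (Chst2 without P14). Here and in the other comparisons, fits without a library keep few residual degrees of freedom, so their calls add no support. Chst2 turned to 0.19 under the limits of 3000 genes and 15000 UMIs.

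Without the replicate block that pairs sums of a library, 1703 genes were called between OHC-like and IHC-like cells, with the same calls for the 6 genes, and the call of Lbh in macrophage-like cells was lost (0 genes higher). The block, as an alternative for SGN-like cells, called 12043 genes against 11747 and changed no call of the 6.

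For IHC-like against other cells, 4540 genes were called, against 2976 under the limits of 3000 genes and 15000 UMIs, 1854 with 10 UMIs in every sum, and 1826 to 7778 without a library, with 5 to 6 of the 6 genes higher. For SGN-like cells those limits gave 4886 genes, 4 of the 6 higher and 0 lower, and turned Gm45716 to 1.48, Mmd to 0.20, Lbh to 1.37 and Rhpn1 to 0.29. Leaving out a library was not run there because 1 sum against 1 leaves no residual degrees of freedom. For macrophage-like cells 3074 genes were called, against 1668 with 10 UMIs in every sum and 885 to 4619 without a library. There 0 of the 6 were higher under the limits of 3000 genes and 15000 UMIs, without the highest doublet scores and at 10% mitochondrial UMIs, 2 were lower without the highest doublet scores (Chst2 and Rhpn1), where Strip2 turned to -0.55, and 0 to 1 were higher and 0 to 1 lower without a library. In IHC-like cells the age ratio of Strip2 turned to 0.87 under the limits of 3000 genes and 15000 UMIs.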
